A study of Mus musculus with 16 samples.

Results

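DNA methylation was examined over 5 mouse genes tied to the decision of a developing T cell between the CD4 and CD8 lineages. They were Cd4, Cd8a, Cd8b1, Zbtb7b and Runx3. The 5 were chosen by name, for their role in that decision, from 21755 protein-coding genes of the GENCODE vM21 annotation. Earlier results of these data were known when they were chosen. Calls were taken from 16 whole-genome bisulphite sequencing (WGBS) libraries of C57BL/6J spleen, 8 of CD43- B cells (resting B cells) and 8 of CD4+CD62L+ T cells (naive CD4+ T cells), all from mice of 6 to 8 weeks and enriched on magnetic columns. Each cell type had 4 male and 4 female libraries, and in each sex 2 were made by standard bisulphite treatment (BS) and 2 after oxidation (oxBS). BS reads 5-methylcytosine and 5-hydroxymethylcytosine alike as methylated, whereas oxBS reads 5-methylcytosine alone. The labels name no treatment and no genetic modification of the mice, and describe the material as pooled between animals. The oxidation was applied to part of a ligated sample, so that a BS and an oxBS library may share their DNA, and the labels do not say which do. The p-values below therefore measure the spread between libraries, part of which may be technical.

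As background, CD4 and CD8 are the coreceptors with which T cells read MHC class II and class I molecules, and a thymocyte carries both before it keeps either. Cd4 encodes the class II coreceptor, and Cd8a and Cd8b1 encode the alpha and beta chains of the class I coreceptor and lie close together on the same chromosome. Zbtb7b encodes ThPOK, the zinc finger factor of the CD4 lineage, and Runx3 encodes a Runt domain factor of the CD8 lineage that acts on a silencer in the Cd4 gene. Methylation of cytosine in a CpG is commonly low at active promoters and enhancers. CD4 protein was itself used in both isolations, to define the T cells and to deplete the B cell preparation, so the T cell libraries hold no CD8 lineage group for comparison.

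The libraries held between 123323834 and 170619848 CpG calls, or 5.78 to 7.99 calls per CpG, and between 78.5% and 81.5% of those calls were methylated. Both male BS libraries of B cells (numbers 1 and 4) listed no position on unplaced contigs, whereas the other libraries listed 16187 to 16778, so these 2 files were made differently in at least that step. The defining genes of each cell type were checked next. Within 1 kb of the start, 5 of 6 B cell markers were called lower in B cells (Pax5, the exception, stood at 4.39% in B and 18.9% in T cells), and 5 of 6 T cell markers were called lower in T cells (Cd28, the exception, stood at 89.4% and 91.1%). None of the 4 myeloid, 3 NK or 3 erythroid marker windows was called in either direction. For so few windows this says little, because 1.10% of all windows were called. The myeloid marker Lyz2 stood at 46.6% in B and 65.0% in T cells, without overlap (adjusted p = 0.000406, quasi-binomial model). Its difference of 18.0 points fell short of the limit for a call, which is given below.

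The sequences below are 300-base stretches from the tile with the largest difference in each gene and, for Runx3, also from the tile with the largest difference in the other direction. They are shown because they hold the CpGs on which the strongest contrasts rest. Bases were read from GRCm38.p6 (mm10), 5′ to 3′ on the strand of the gene, and the capitals mark the CpGs.
Cd4, 500 to 999 bp after the start, minus strand, chr6:124887321-124887620: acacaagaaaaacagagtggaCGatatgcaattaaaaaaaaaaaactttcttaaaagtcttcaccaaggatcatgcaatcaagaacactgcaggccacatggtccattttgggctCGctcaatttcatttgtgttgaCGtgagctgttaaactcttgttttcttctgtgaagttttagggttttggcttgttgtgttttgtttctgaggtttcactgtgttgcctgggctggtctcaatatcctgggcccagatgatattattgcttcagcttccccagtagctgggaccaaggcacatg
Cd8b1, 15000 to 14501 bp before the start, plus strand, chr6:71307801-71308100: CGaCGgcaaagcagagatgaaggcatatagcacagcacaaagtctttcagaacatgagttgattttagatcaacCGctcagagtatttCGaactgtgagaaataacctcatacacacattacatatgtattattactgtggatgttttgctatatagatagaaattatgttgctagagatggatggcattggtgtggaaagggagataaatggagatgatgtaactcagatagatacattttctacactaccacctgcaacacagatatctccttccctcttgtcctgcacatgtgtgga
Cd8a, 2500 to 2001 bp before the start, plus strand, chr6:71371073-71371372: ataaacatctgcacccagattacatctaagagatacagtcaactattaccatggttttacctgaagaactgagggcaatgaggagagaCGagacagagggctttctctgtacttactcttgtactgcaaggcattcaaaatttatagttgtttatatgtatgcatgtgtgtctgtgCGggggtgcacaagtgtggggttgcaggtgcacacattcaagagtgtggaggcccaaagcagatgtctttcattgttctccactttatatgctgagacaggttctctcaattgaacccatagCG
Zbtb7b, 8000 to 8499 bp after the start, minus strand, chr3:89386424-89386723: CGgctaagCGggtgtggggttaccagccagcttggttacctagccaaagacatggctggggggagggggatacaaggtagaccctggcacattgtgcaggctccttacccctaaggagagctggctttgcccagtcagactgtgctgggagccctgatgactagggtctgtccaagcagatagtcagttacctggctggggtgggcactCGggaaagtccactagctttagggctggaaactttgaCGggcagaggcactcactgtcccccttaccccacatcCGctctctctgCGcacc
Runx3, 5000 to 4501 bp before the start, plus strand, chr4:135115771-135116070: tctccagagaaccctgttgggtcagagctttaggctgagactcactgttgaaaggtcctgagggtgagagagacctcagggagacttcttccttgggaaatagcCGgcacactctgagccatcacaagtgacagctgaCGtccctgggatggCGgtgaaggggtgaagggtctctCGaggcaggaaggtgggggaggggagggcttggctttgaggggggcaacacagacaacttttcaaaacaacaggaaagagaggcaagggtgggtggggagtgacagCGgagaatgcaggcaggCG
Runx3, 15500 to 15999 bp after the start, plus strand, chr4:135136236-135136535: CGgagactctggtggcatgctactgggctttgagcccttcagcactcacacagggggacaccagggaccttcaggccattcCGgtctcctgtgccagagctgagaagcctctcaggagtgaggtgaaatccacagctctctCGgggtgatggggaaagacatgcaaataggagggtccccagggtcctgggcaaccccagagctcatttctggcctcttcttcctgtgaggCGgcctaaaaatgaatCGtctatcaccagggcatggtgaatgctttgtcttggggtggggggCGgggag

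CpG by CpG, the contrast was sharp in most of these stretches. The 3 CpGs of the Cd4 stretch were methylated in 95.8% to 100% of B cell calls and in 17.9%, 0% and 0% of T cell calls, in order from the 5′ end. The 4 CpGs of the Cd8b1 stretch ranged from 76.6% to 95.3% in B cells, while T cells had 0% to 6.12%. In the Cd8a stretch the 3 CpGs stood at 93.3% to 98.2% in B cells and at 64.3%, 23.1% and 22.7% in T cells. All 6 CpGs of the Zbtb7b stretch were at 88.4% or more in B cells and at 14.3% or less in T cells. In the upstream Runx3 stretch B cell levels varied from 36.8% to 89.8% between CpGs, and T cell levels from 1.85% to 24.3%. The intronic Runx3 stretch ran the other way, with 0% to 24.1% in B cells, and in T cells 69.1% or more at 5 of the 6 CpGs and 5.77% at the remaining CpG. These levels pool the calls of 8 libraries, 28 to 89 calls per CpG and cell type. The CpGs at 0% had 38 to 89 calls, and 3 calls of such totals allow a level of up to 7.89% and 3.37%. All such limits cover counting error alone, and calls from one read or from PCR copies of one molecule are not independent.

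Levels around the annotated start were compared first, pooling all calls within 1 kb on either side. The methylation level was lower in T cells at Cd4, Cd8b1, Cd8a and Runx3, and close to 0 in both cell types at Zbtb7b. A window was called where the quasi-binomial model gave an adjusted p under 0.05 over 21035 windows and the pooled levels differed by at least 20 percentage points. Of all windows 1.10% were called, 0.704% lower in T cells and 0.399% lower in B cells, and in 3.59% the libraries of the cell types did not overlap.

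At Cd4 (24 CpGs) the B cell libraries ranged from 66.5% to 81.4% (median 72.5%) and the T cell libraries from 7.95% to 23.9% (median 13.6%). The mean was 72.6% ± 4.54 in B cells and 14% ± 5.41 in T cells (mean ± SD, n = 8 each). The pooled levels differed by 58.3 points (adjusted p = 9.21e-08, quasi-binomial model), with every T cell library below every B cell library. At Cd8b1 (32 CpGs) the B cell libraries ranged from 86.7% to 93.4% (median 90.7%) and the T cell libraries from 25.5% to 46.7% (median 36.1%). The level was 90.3% ± 2.0 in B cells and 34.9% ± 7.36 in T cells (mean ± SD, n = 8 each), again without overlap. The difference was 54.9 points (adjusted p = 1.03e-08, quasi-binomial model).

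At Cd8a (39 CpGs) the drop was smaller. B cell libraries ranged from 83.5% to 88.7% (median 86.7%) and T cell libraries from 54.5% to 69.2% (median 60.3%). The T cells thus kept a majority of calls methylated at the Cd8a start, 60.5% ± 5.05 against 86.7% ± 1.55 in B cells (mean ± SD, n = 8 each). The difference was 25.6 points (adjusted p = 3.24e-08, quasi-binomial model). At the start of Runx3 (44 CpGs) the B cell libraries spread from 47.1% to 67.9% (median 59.0%) and the T cell libraries from 28.6% to 43.2% (median 34.1%). The level was 58.5% ± 8.03 in B cells and 34.8% ± 4.94 in T cells (mean ± SD, n = 8 each). The 23.3 points between the pooled levels passed the rule (adjusted p = 0.00102, quasi-binomial model). This call was lost under other choices: T minus B was -12.5 points within 500 bp of the start and -18.2 within 2 kb, both short of the 20-point limit, and -18.6 with the BS libraries alone (adjusted p = 0.299, quasi-binomial model). It was also lost with the oxBS, male or female libraries alone (-28.5, -22.4 and -24.3 points, adjusted p = 0.0609, 0.27 and 0.12, quasi-binomial model).

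At Zbtb7b (73 CpGs) the level was 2.0% ± 0.887 in B cells, from 0.613% to 3.24% (median 1.83%), and 0.879% ± 0.427 in T cells, from 0.211% to 1.47% (median 0.868%) (mean ± SD, n = 8 each). The ranges overlapped and the window was not called (adjusted p = 0.0633, quasi-binomial model). An exact two-sided permutation test of the 8 against 8 library levels gave p = 0.000155, the smallest it can give, for Cd4, Cd8a, Cd8b1 and Runx3, and p = 0.00606 for Zbtb7b. By level in T cells the genes ran from Zbtb7b through Cd4 to Runx3 and Cd8b1, whose ranges overlapped, and then Cd8a. In B cells the order was Zbtb7b, Runx3, Cd4, Cd8a and Cd8b1, with overlapping ranges for Runx3 and Cd4 and for Cd8a and Cd8b1. The windows rested on 174 to 659 calls per library.

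**Figure D1:**
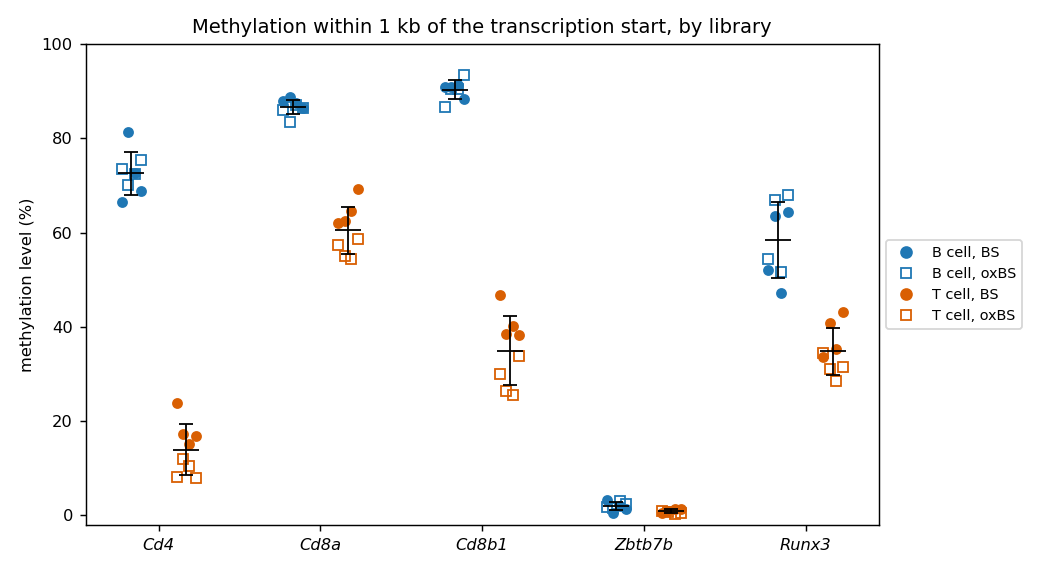
Methylation level (%) within 1 kb of the annotated start of each gene, with 1 point per library (circles BS, squares oxBS) and bars for the mean and SD of 8 libraries. The T cell libraries lie below all B cell libraries at Cd4, Cd8a, Cd8b1 and Runx3, and both cell types lie under 4% at Zbtb7b.

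The genes were then cut into 500 bp tiles, from 15 kb before the start to the end of the gene. Of 390 tiles, 316 held 3 or more CpGs and 10 or more calls in every one of the 16 libraries, and the other 74 were not tested. Of the 316, 94 were called under the same rule (29.7%), 87 lower in T cells and 7 lower in B cells. Over the 1615790 tested tiles of all protein-coding genes 3.85% were called, 2.50% lower in T cells and 1.35% lower in B cells. The cell types did not overlap in 94 member tiles, of which 83 were called, against 4.27% of all tiles. The median difference of a member tile was -4.41 points (T minus B), against -0.482 over all tiles. All 94 called tiles kept their direction within BS, within oxBS, within males and within females. For the 83 without overlap this had to follow, because any subset of separated libraries keeps the direction.

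The share of called tiles was 44.7% in Cd8b1 (17 of 38), 44.4% in Cd8a (12 of 27), 39.1% in Cd4 (25 of 64), 32.1% in Zbtb7b (18 of 56) and 16.8% in Runx3 (22 of 131). Among 17926 genes with 20 or more tested tiles, 27 had a higher share than Cd8b1, 29 than Cd8a, 46 than Cd4, 95 than Zbtb7b and 594 than Runx3. Every called tile of Cd8a, Cd8b1 and Zbtb7b was lower in T cells, as were 23 of 25 in Cd4 and 17 of 22 in Runx3. With the BS libraries alone 42 tiles were called lower in T cells and 3 lower in B cells, and with the oxBS libraries alone 69 and 2. Without both male BS libraries of B cells the counts were 86 and 6. The share of all tiles called in each subset was not computed, so these counts have no background beside them.

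In Cd4 (ENSMUSG00000023274.14) the tiles lower in T cells formed a stretch of 8000 bp around the start, from 1000 bp before it to 6999 bp after it (chr6:124881222-124889221), which covers the promoter, exon 1 and part of intron 1. Over its 15 called tiles and 99 CpGs the level was 78.4% ± 2.89 in B cells, from 74.1% to 82.7%, and 22.0% ± 8.36 in T cells, from 13.2% to 31.6% (mean ± SD, n = 8 each). The T cell libraries averaged 29.5% in BS and 14.4% in oxBS, and the SD includes that gap. T cell values of other tiles and stretches also mix both assays, which are compared further on. The largest difference of all members lay in this stretch, 500 to 999 bp after the start (chr6:124887222-124887721, intron 1, 3 CpGs). There the B cell libraries held from 93.5% to 100% (median 98.3%), and 4 of the 8 had no unmethylated call. The T cell libraries held from 0% to 9.09% (median 4.46%), and 3 of the 8 had no methylated call in 16 to 18 calls each, which allows up to 18.8% and 16.7%. The groups lay at opposite ends of the scale, 93.8 points apart (adjusted p = 1.2e-07, quasi-binomial model), on 11 to 31 calls per library.

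Further into the intron the level dipped in both cell types and then rose. From 1000 to 1499 bp the B cell libraries held 92.3% to 100% and the T cell libraries 10.0% to 36.4%, with means of 95.6% ± 2.50 and 21.1% ± 8.97 (mean ± SD, n = 8 each). From 1500 to 1999 bp the means were 74.8% ± 5.76 and 7.23% ± 4.18 (mean ± SD, n = 8 each). The dip was deepest from 2500 to 2999 bp, a tile singled out after its values were seen. B cell libraries there averaged 23.5% ± 11.2 (SD, n = 8), and no T cell library had a methylated call in 474 calls, which allows up to 0.633%. From 4500 to 4999 bp (10 CpGs) B cell libraries were back at 95.7% to 100% and T cell libraries held 10.0% to 41.4%, with means of 97.3% ± 1.53 and 24.0% ± 12.8 (mean ± SD, n = 8 each). The tile from 6500 to 6999 bp, on 10 to 29 calls per library, held 91.7% to 100% in B cell and 3.85% to 50% in T cell libraries. The wide spread of the T cell libraries at 1000, 4500 and 6500 bp went with the assay, the BS libraries lying above the oxBS libraries, as described further on.

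Upstream of Cd4 a separate stretch of 3 called tiles lay 13000 to 11501 bp before the start (chr6:124899722-124901221, 19 CpGs). Its level was 68.3% ± 8.16 in B cells and 13.1% ± 5.26 in T cells (mean ± SD, n = 8 each). In the outermost of its tiles, 13000 to 12501 bp before the start, B cell libraries held 64.4% to 85.3% (median 70.1%) and T cell libraries 1.67% to 10.6% (median 4.01%). The difference of 67 points was called (adjusted p = 1.75e-07, quasi-binomial model). As background, an enhancer of Cd4 is known upstream of the gene and a silencer in its first intron, and the tiles were not matched to either. The tile 10500 to 10001 bp before the start was nearly unmethylated in both cell types, with a methylated call in 1 B cell library and none in 169 T cell calls, which allows up to 1.78%.

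In Cd4, 2 tiles were called lower in B cells, both singled out after their values were seen. At 9500 to 9001 bp before the start the level was 62.7% ± 4.50 in B cells and 89.6% ± 6.88 in T cells (mean ± SD, n = 8 each, adjusted p = 0.00125 in the quasi-binomial model and p = 0.000155 in the exact permutation test). Of its 15 CpGs, 10 lie 4 bases from the next in a short tandem repeat, and the calls per library ranged from 23 to 157. At 13500 to 13999 bp after the start, in intron 3, B cells held 35.0% ± 10.1 and T cells 60.7% ± 9.60 (mean ± SD, n = 8 each) over 3 CpGs, with overlapping libraries and as few as 10 calls. From 15500 bp to the end of the gene no Cd4 tile was called.

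Cd8b1 and Cd8a were lower in the CD4+ T cells than in B cells at 29 of 65 tested tiles, and no called tile went the other way. In Cd8b1 (ENSMUSG00000053044.8) the stretch from 1000 bp before to 1999 bp after the start (chr6:71321788-71324787, 5 called tiles, 38 CpGs) held 91.3% ± 1.46 in B cells and 42.9% ± 7.94 in T cells (mean ± SD, n = 8 each). Within it the tile of the last 500 bp before the start was nearly unmethylated in T cells. There B cell libraries held 75.9% to 88.9% (median 84.2%) and T cell libraries 0% to 7.94% (median 3.87%), a difference of 78.4 points over 11 CpGs (adjusted p = 9.63e-09, quasi-binomial model). The flanking tiles were intermediate, with a T cell level of 42.3% ± 12.5 in the tile before it and 34.6% ± 13.7 in the tile after the start (mean ± SD, n = 8 each). The call in the tile before it was lost with the BS libraries alone, at -48.9 points (adjusted p = 0.0583, quasi-binomial model).

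In the body of Cd8b1 a stretch from 6000 to 11999 bp after the start (chr6:71328788-71334787, introns 2 to 5, 9 called tiles, 65 CpGs) held 86.1% ± 1.79 in B cells and 39.6% ± 8.20 in T cells (mean ± SD, n = 8 each). The T cell libraries averaged 47.2% in BS and 32.1% in oxBS. The lowest T cell level of the stretch was at 11000 to 11499 bp (exon 5 and flanking introns, 12 CpGs), where B cell libraries held 91.8% to 98.8% (median 94.4%) and T cell libraries 4.67% to 30.3% (median 18.9%). At 8500 to 8999 bp the means were 91.2% ± 4.88 and 22.9% ± 8.99 (mean ± SD, n = 8 each). The tile at 7000 to 7499 bp had the lowest B cell level of the tested Cd8b1 tiles, 49.6% ± 10.9, against 22.8% ± 5.47 in T cells (mean ± SD, n = 8 each), and its groups overlapped. Its call was lost within BS (adjusted p = 0.56), within oxBS (adjusted p = 0.0564), within males (adjusted p = 0.0727) and within females (adjusted p = 0.5), all from the quasi-binomial model.

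The farthest tile, 15000 to 14501 bp before Cd8b1 (chr6:71307788-71308287), had the lowest T cell level of the tested Cd8b1 tiles. It lies inside the neighbouring gene Smyd1, which encodes a muscle histone methyltransferase. B cell libraries held 66.7% to 100% (median 84.8%) and T cell libraries 0% to 7.69% (median 0%), 82.9 points apart (adjusted p = 4.62e-07, quasi-binomial model) on 15 to 46 calls per library. At 10500 to 10001 bp before the start, also inside Smyd1, the level was 93.4% ± 1.97 in B cells and 32.5% ± 10.1 in T cells (mean ± SD, n = 8 each).

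In Cd8a (ENSMUSG00000053977.13) no tile was as low in T cells as the Cd8b1 promoter. The lowest was 13000 to 12501 bp before the start (chr6:71360427-71360926, 3 CpGs, inside the lincRNAs Gm44174 and Gm44175), with 58.8% to 80% (median 72.0%) in B cell libraries and 6.67% to 22.6% (median 13.4%) in T cell libraries. That tile and its neighbours formed a stretch of 2000 bp with 82.9% ± 3.68 in B cells and 38.8% ± 9.16 in T cells (mean ± SD, n = 8 each). The 2 tiles after it lost their calls with the oxBS libraries alone, at differences of -52.2 and -49.3 points (adjusted p = 0.0624 and 0.062, quasi-binomial model), and with the male libraries alone, at -54.2 and -45.1 points (adjusted p = 0.0667 and 0.0842, quasi-binomial model).

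Nearer to Cd8a, the tile 4000 to 3501 bp before the start held 91.1% to 98.4% (median 97.3%) in B cells and 32.8% to 48.1% (median 41.4%) in T cells, 55.0 points apart over 8 CpGs (adjusted p = 2.05e-07, quasi-binomial model). The tile 2500 to 2001 bp before the start showed the largest difference of the gene, 62.6 points, with 95.2% ± 5.22 in B cells and 32.8% ± 10.6 in T cells (mean ± SD, n = 8 each). It rested on 13 to 36 calls per library, and its call was lost with the BS libraries alone, where the difference was -66.2 points (adjusted p = 0.0588, quasi-binomial model). Inside the gene the tile from 3000 to 3499 bp (intron 4 and exon 5, 15 CpGs) held 82.4% to 97.9% (median 92.0%) in B cell libraries and 17.6% to 42.7% (median 35.9%) in T cell libraries. The first 500 bp held 82.5% ± 3.64 in B cells and 46.4% ± 5.67 in T cells (mean ± SD, n = 8 each). Enhancers of the Cd8 genes are known, as background, around and between both genes, and the tiles were not matched to them.

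**Figure D2:**
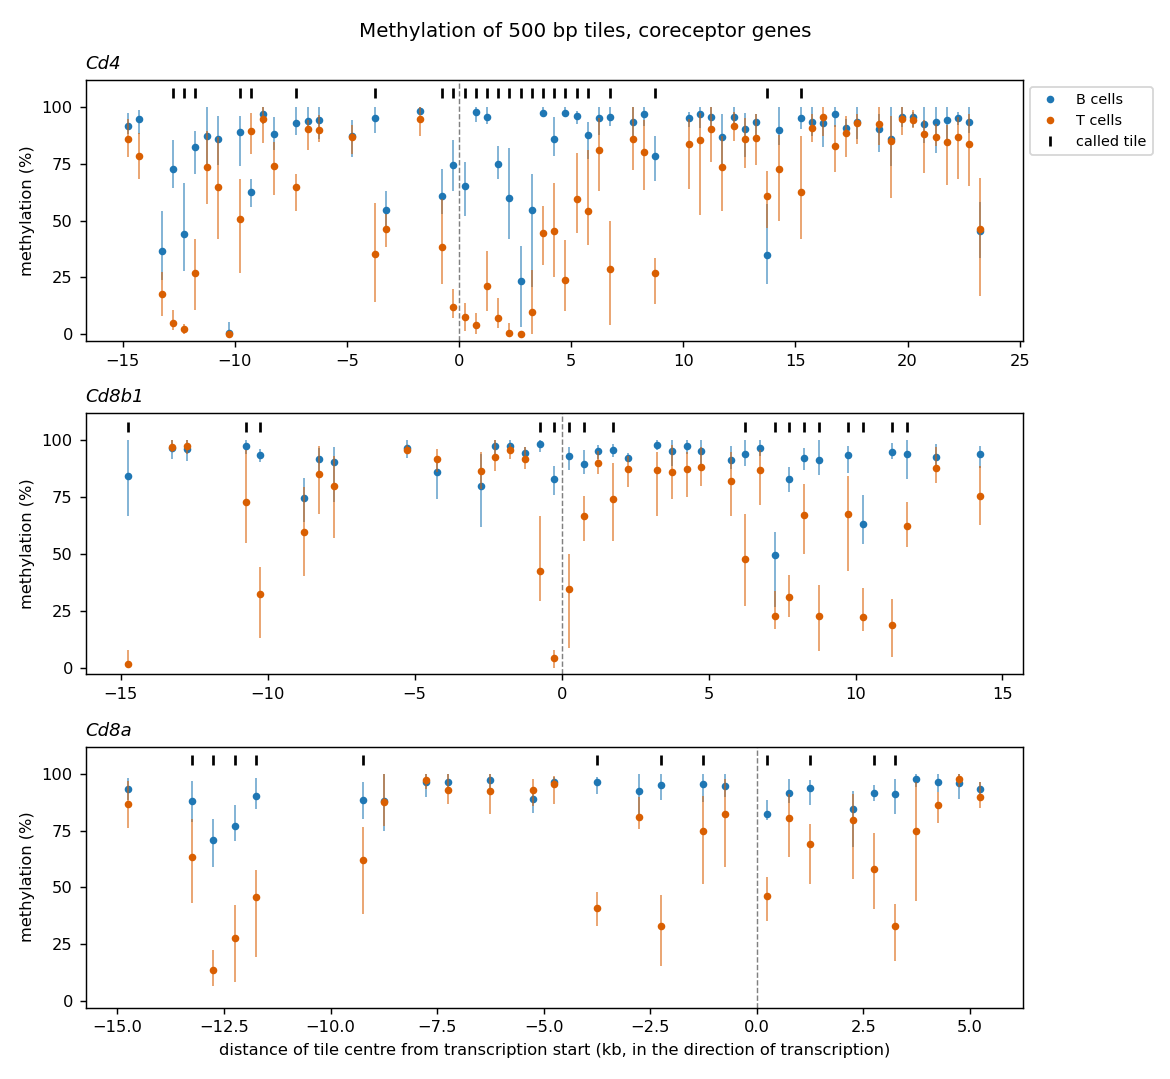
Methylation (%) of the tested 500 bp tiles along Cd4, Cd8b1 and Cd8a by distance from the start in kb, with points for the mean of 8 libraries and lines for their range, and ticks at the top for the 25, 17 and 12 called tiles. Most called tiles of Cd4 lie from 1000 bp before to 6999 bp after its start, and those of Cd8b1 lie mainly around the start and in the gene body.

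Zbtb7b (ENSMUSG00000028042.15) combined a nearly unmethylated 5′ end with a deep T cell difference further in. None of the 25 tested tiles before the annotated start was called. At 7000 to 6501 bp before it B cells held 94.7% ± 2.37 and T cells 77.4% ± 8.36 (mean ± SD, n = 8 each), without overlap. The 15.5 points there fell short of the limit for a call (adjusted p = 0.000313, quasi-binomial model). So did the 14.9 points at 3500 to 3001 bp before the start, where the libraries overlapped (adjusted p = 0.00811, quasi-binomial model). From 2000 bp before the start to 3999 bp after it no tile mean exceeded 12.9% in B cells or 4.17% in T cells. The tile from 2500 to 2999 bp (30 CpGs) was the lowest in B cells, with 0% to 1.32% in B cell libraries and 0% to 0.549% in T cell libraries. The B cells then rose and the T cells stayed low. Over the stretch from 4500 to 8999 bp (chr3:89385777-89390276, intron 1, 8 called tiles, 59 CpGs) the level was 76.7% ± 4.51 in B cells, from 69.8% to 81.6%, and 7.16% ± 5.35 in T cells, from 1.19% to 13.2% (mean ± SD, n = 8 each).

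In the tile from 8000 to 8499 bp the B cell libraries held 90.9% to 96.6% (median 93.6%) and the T cell libraries 0% to 11.2% (median 2.95%), a difference of 88.2 points over 7 CpGs (adjusted p = 8.66e-09, quasi-binomial model). In the tile before it, from 7500 to 7999 bp, the values were 81.5% to 94.0% in B cells and 0% to 3.08% in T cells. There 6 of the 8 T cell libraries had no methylated call in 27 to 59 calls each, which allows up to 11.1% and 5.08%. The groups were at opposite ends of the scale in both tiles. At 6000 to 6499 bp B cells held 88.8% ± 4.50 and T cells 8.21% ± 7.37 (mean ± SD, n = 8 each).

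Further on, from 10000 to 15499 bp (chr3:89379277-89384776, 10 called tiles, 107 CpGs), the level was 85.5% ± 2.76 in B cells and 37.9% ± 11.5 in T cells (mean ± SD, n = 8 each). The T cell libraries averaged 48.1% in BS and 27.6% in oxBS, and the SD includes that gap. At 10000 to 10499 bp B cells held 90.2% ± 6.61 and T cells 9.97% ± 5.67 (mean ± SD, n = 8 each). At 11500 to 11999 bp the values were 94.6% ± 2.82 and 8.91% ± 5.36, and at 12500 to 12999 bp 90.4% ± 5.04 and 8.86% ± 6.15 (mean ± SD, n = 8 each). Over exon 2 the gap was smaller. T cells held 69.6% ± 13.6 at 13500 to 13999 bp, against 93.7% ± 1.66 in B cells (mean ± SD, n = 8 each).

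Runx3 (ENSMUSG00000070691.10), the CD8 lineage factor, was called lower in CD4+ T cells at 17 tiles and higher at 5, and its tile differences ran from -47.1 to 45.5 points. The balance moved with the placement of the tiles, to 11 lower and 9 higher when their borders were shifted to the middle of the former tiles, and a limit of 30 points left 6 lower in T cells. The largest was 5000 to 4501 bp before the start (chr4:135115652-135116151, 8 CpGs). B cell libraries there held 63.5% to 77.9% (median 73.6%) and T cell libraries 16.1% to 38% (median 26.4%), with no overlap (adjusted p = 4.78e-07, quasi-binomial model). Around the start 5 called tiles, from 1000 bp before to 2999 bp after it, held 83.7% ± 4.10 in B cells and 54.8% ± 4.32 in T cells (mean ± SD, n = 8 each). Between them the tile of the last 500 bp before the start, which was not called, had no methylated call in 962 T cell calls (which allows up to 0.312%) and held 3.51% to 7.58% in B cells. The groups did not overlap there (adjusted p = 6.56e-05, quasi-binomial model), but the 6.23 points fell short of the 20-point limit.

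Another Runx3 stretch lower in T cells lay 34000 to 35499 bp after the start (chr4:135154652-135156151, introns 2 and 3 and exon 3, 48 CpGs), with 84.9% ± 3.78 in B cells and 49.2% ± 10.1 in T cells (mean ± SD, n = 8 each). In its middle tile B cell libraries held 82.8% to 94.8% (median 90.4%) and T cell libraries 35.4% to 70.2% (median 49.5%), and the call was lost with the BS or the female libraries alone (adjusted p = 0.0699 and 0.0994, quasi-binomial model). In the tile after it the means were 92.9% ± 4.53 and 51.9% ± 13.1 (mean ± SD, n = 8 each). That call was lost with the male libraries alone, at -43.5 points (adjusted p = 0.0504, quasi-binomial model). The tile from 32000 to 32499 bp, with 64 CpGs just after the proximal start, was nearly unmethylated in both cell types, at 0% to 0.293% in B cells and 0% to 0.195% in T cells.

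The 5 Runx3 tiles lower in B cells lay in introns 1 and 3, each on its own. At 15500 to 15999 bp (chr4:135136152-135136651, 9 CpGs) B cell libraries held 14.3% to 33.9% (median 25%) and T cell libraries 62.4% to 76.9% (median 71.5%), 45.5 points apart (adjusted p = 1.04e-06, quasi-binomial model). At 28000 to 28499 bp B cells held 5.41% to 21.7% (median 13%) and T cells 38.9% to 61.8% (median 51.7%), and the call was lost with the male libraries alone (36.2 points, adjusted p = 0.0552, quasi-binomial model). At 39500 to 39999 bp, on 3 CpGs and 14 to 47 calls, the means were 50.5% ± 12.9 and 87.6% ± 5.44 (mean ± SD, n = 8 each). That call was lost within BS, oxBS, males and females alike (adjusted p = 0.07, 0.228, 0.172 and 0.129, quasi-binomial model). The remaining 2, at 10500 and 24500 bp, were named after their values were seen and averaged 27.5% and 68.6% in B cells and 61.2% and 89.5% in T cells.

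**Figure D3:**
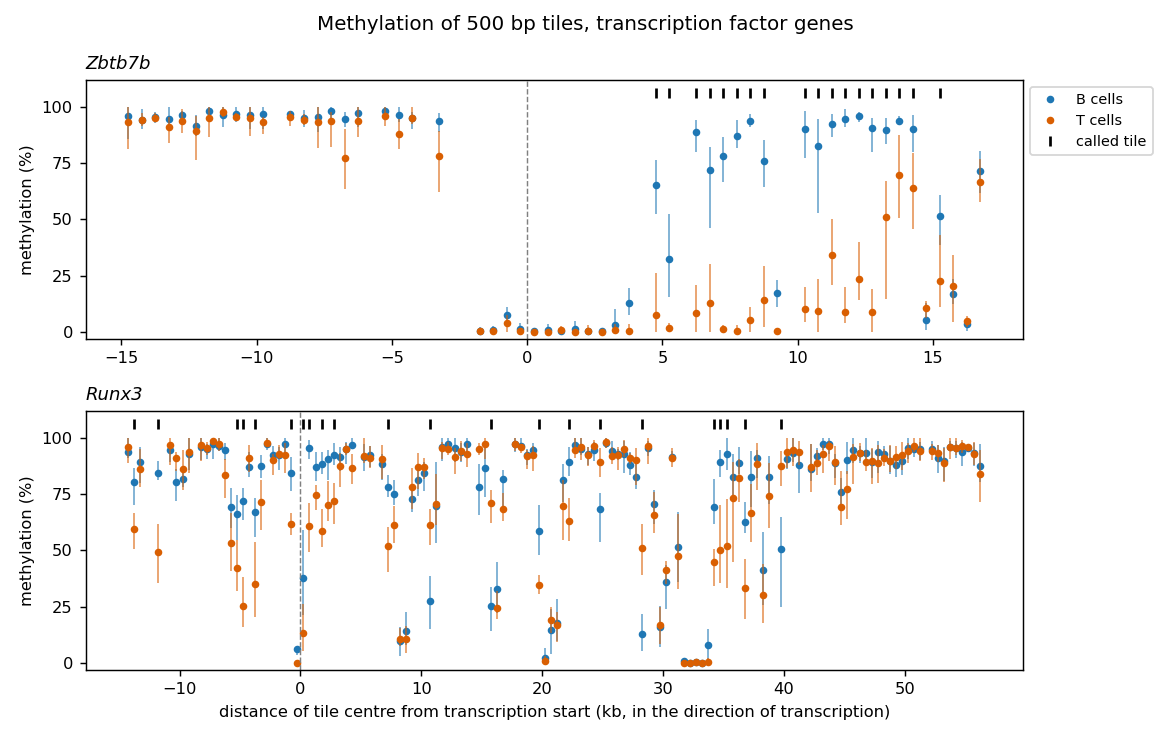
Methylation (%) of the tested 500 bp tiles along Zbtb7b and Runx3 by distance from the start in kb, with points for the mean of 8 libraries and lines for their range, and ticks at the top for the 18 and 22 called tiles. T cell means stay under 15% from 4500 to 8999 bp into Zbtb7b while B cells are higher, and Runx3 has called tiles in both directions.

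Several members have more than 1 annotated promoter, so windows of 1 kb on either side of every protein-coding transcript start were tested too, of which 1.53% were called over 52962 windows of all genes. Of 14 such windows in the members, 7 were called, and all 7 were lower in T cells. The called windows at the annotated starts of Cd4, Cd8b1, Cd8a and Runx3 are those given above. Another of Cd8a lies 126 bp from its start, and only those of Zbtb7b lie elsewhere. The annotated 5′ end of Zbtb7b belongs to a non-coding transcript. At the coding starts 1098 to 2707 bp downstream of it the level was under 2% in both cell types (0.817% to 1.82% in B cells). At the 2 internal starts, 7105 and 7587 bp downstream, it was 80.9% ± 5.14 and 82.0% ± 6.35 in B cells and 5.95% ± 5.01 and 5.14% ± 4.57 in T cells (mean ± SD, n = 8 each). The difference at the latter was 77.3 points (adjusted p = 2.73e-08, quasi-binomial model). These windows overlap and are not independent of the tiles above. The proximal start of Runx3, 31844 bp after the distal start, held 13.3% ± 3.15 in B cells and 10.8% ± 1.35 in T cells (mean ± SD, n = 8 each). It was not called (adjusted p = 0.183, quasi-binomial model), whereas the distal start was.

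BS and oxBS libraries of the T cells were compared because 5-hydroxymethylcytosine is read as methylated in BS and as unmethylated in oxBS. In T cells the BS level was the higher in 273 of the 316 member tiles (86.4%, against 66.2% of all tiles), with a median difference of 4.89 points, against 1.17 points over all tiles. No member tile was called, and neither was any tested tile of all protein-coding genes (0% of 1615790). The test had only the T cell libraries and was adjusted over all those tiles, so a lack of calls does not show that a gap was absent. The smallest adjusted p among members was 0.814 (quasi-binomial model). At an unadjusted p under 0.05 there were 87 of the 316 member tiles, against 6.13% of all tiles. Every one of the 4 BS libraries lay above every one of the 4 oxBS libraries in 92 member tiles (29.1%), against 6.67% of all tiles, and the reverse held in 0 member tiles, against 0.682% of all.

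The gap was widest in Cd4. Over all its tested tiles the T cell level was 66.3% ± 1.45 in BS and 53.5% ± 2.43 in oxBS (mean ± SD, n = 4 each), with libraries from 64.5% to 67.8% and from 50.2% to 56.0%. It was 70.7% ± 1.95 and 60.9% ± 1.3 in Cd8b1, 71% ± 1.63 and 64.4% ± 1.28 in Cd8a, 37.6% ± 1.89 and 32.4% ± 1.79 in Zbtb7b, and 64.9% ± 0.851 and 62.0% ± 0.774 in Runx3 (mean ± SD, n = 4 each). The ranges of the BS and oxBS libraries were apart in all 5 genes. They were also apart over all tested tiles of protein-coding genes, at 72.4% to 72.7% and 71.1% to 71.8%. In B cells the same gap ran from -0.982 points in Cd4 to 0.288 points in Cd8b1, and the ranges of BS and oxBS overlapped in every member. In B cells 5 member tiles had all BS above all oxBS libraries (1.58%, against 1.21% of all tiles) and 7 had the reverse (against 1.28%), with 5 tiles at an unadjusted p under 0.05 (against 1.28% of all tiles) and 0 called (0% of all tiles).

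The T cell gap was also split by the T cell level of the tile. Levels near either end of the scale leave little room for a gap, so smaller medians there carry no further meaning. In tiles with a T cell level of 20% to 80% its median was 17.3 points in Cd4, 16.2 in Zbtb7b and 14.3 in Cd8b1. It was 11.7 in Cd8a and 6.39 in Runx3, against 3.23 points over the 241681 such tiles of all protein-coding genes. In tiles under 20% the median was 1.54 points over the members, against 0.321 over all tiles in that range. In tiles of 80% or more it was 4.11 points over the members, against 1.09 over all such tiles. Among the wider gaps, 4 tiles of Cd4 and Runx3 are given that were chosen after their values were seen, so no test is given for them. In the tile 11000 to 10501 bp before Cd4, which was not called between the cell types, the T cell BS libraries averaged 83.1% ± 3.70 and the oxBS libraries 46.5% ± 4.03 (mean ± SD, n = 4 each), while B cells held 85.7%. At 4000 to 4499 bp after the Cd4 start they averaged 60.1% ± 9.54 and 30.9% ± 4.15, and at 6500 to 6999 bp 42.2% ± 9.63 and 14.8% ± 8.07 (mean ± SD, n = 4 each). In the middle tile of the Runx3 stretch, at 34500 to 34999 bp, the 4 BS libraries held 57.3% to 70.2% and the 4 oxBS libraries 35.4% to 41.8%.

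Of the 87 member tiles called lower in T cells, 78 had a wider B to T difference in oxBS than in BS libraries. That is 89.7%, against 84.8% of all tiles called lower in T cells. The medians were 50.1 points in oxBS and 39.2 in BS, against 39.3 and 28.5 over all such tiles. The widening was thus of like size in both sets. Of the 7 member tiles called lower in B cells, 1 was wider in oxBS (against 31.2% of all tiles called so). These widths come from the same levels as the T cell gap above, with little gap in B cells, and are not a separate result. At 4500 to 4999 bp of Cd4, T minus B was -81.9 points in oxBS and -64.4 in BS libraries, while at 500 to 999 bp it was -92.2 and -95.8 points. The interaction of cell type and assay passed in 0 member tiles and in 0% of all tiles, with 50 of the 316 member tiles at an unadjusted p under 0.05, against 5.85% of all tiles. The efficiency of oxidation in each library was not measured here, and its part in these values was not tested.

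**Figure D4:**
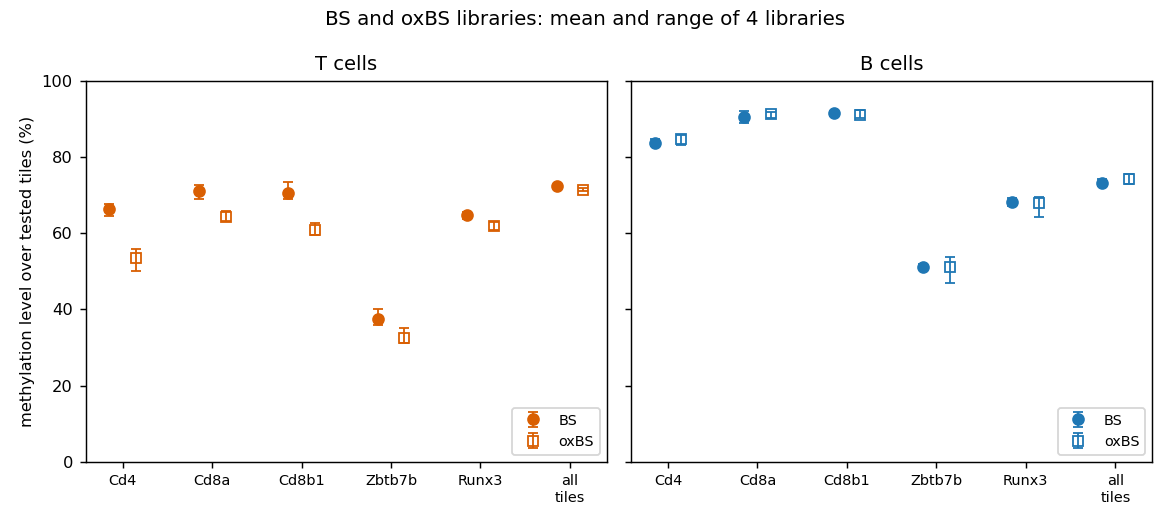
Methylation level (%) pooled over the tested tiles of each gene and over all tiles, with points for the mean of 4 BS or 4 oxBS libraries and bars for their lowest and highest value. In T cells BS lies above oxBS in all 5 genes, most in Cd4 (66.3% and 53.5%), and in B cells the 2 overlap.

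**Figure D5:**
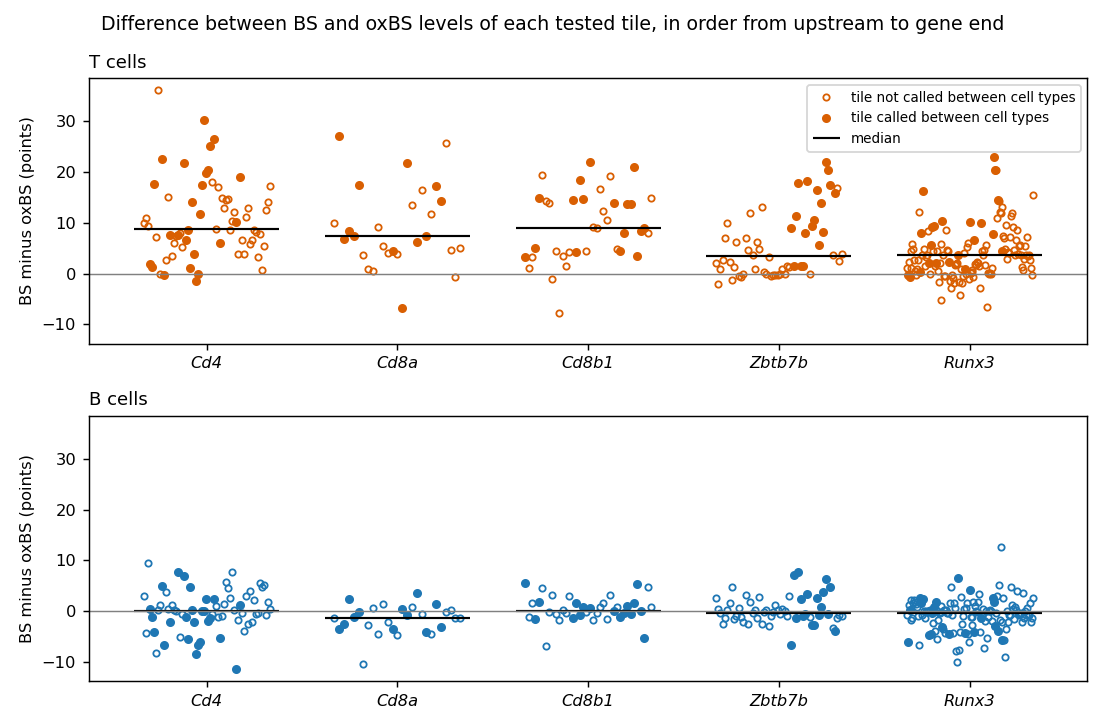
Difference between pooled BS and oxBS levels (points) of each tested tile, in order along each gene, in T cells (top) and B cells (bottom), with filled points for tiles called between the cell types and a line at the median. In T cells the medians run from 3.49 to 9.04 points, and in B cells from -1.28 to 0.101.

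No member tile was called between males and females, against 0.112% of all tiles, and 11 of the 316 member tiles had an unadjusted p under 0.05, against 3.35% of all tiles. The members are autosomal, whereas the tiles of all genes include the X chromosome, so these shares are not like for like. The sex difference of a member tile ranged from -10.7 to 9.20 points (female minus male), with a median of 0.0256. The interaction of cell type and sex passed in 0 member tiles and in 0% of all tiles (quasi-binomial model), with 6 member tiles at an unadjusted p under 0.05, against 2.94% of all tiles.

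A list of 26 other regulators of the same choice was described alongside. Of 2970 tested tiles, 878 were called (29.6%, against 3.85% of all tiles), 822 lower in T cells and 56 lower in B cells, and the median difference was -4.43 points. Genes with many tested tiles weigh most in this pooled share. By gene the share ran from 0% to 69.5%, with 3.57% in Id2 and 3.90% in Myb, and lay above that of all tiles in 24 of the 26. Of the 26 start windows of the list 3 were called (against 1.10% of all windows), all lower in T cells. They were Themis, a signalling protein needed for thymocyte selection (87.3% ± 5.12 in B cells and 2.55% ± 2.04 in T cells), Zap70, a kinase of the T cell receptor (88.0% ± 2.85 and 22.9% ± 5.02), and Lck, the kinase that binds the tails of CD4 and CD8 (70.1% ± 7.01 and 13% ± 5.57, SD, n = 8 each). The most called tiles were in Lef1, an HMG box factor of early T cells (154 of 226), Bcl11b, a zinc finger factor of T lineage commitment (133 of 203), and Ets1 (97 of 195). By share of tested tiles, which does not follow gene length, Tcf7 (69.5%), Lef1 (68.1%), Satb1 (67.2%) and Bcl11b (65.5%) came before Ets1 (49.7%). Eomes had none of 35, and 20 of the 26 start windows lay under 16% in both cell types. In T cells BS lay above oxBS at the starts of Lck, Zap70 and Themis as well, by 10.1, 8.90 and 1.01 points. At the member starts this gap ran from 0.416 points in Zbtb7b to 11.9 points in Cd8b1.

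By the root mean square difference in start-window level over the 16 libraries, the genes closest to Cd4 were Cd5 (5.38 points), Lck (5.81 points) and Gimap3 (6.70 points). Those closest to Cd8b1 were Igsf23 (4.19 points), Cxcr6 (4.98 points) and Tmem217 (6.32 points), and those closest to Cd8a were Tex50 (3.75 points), Ms4a4a (3.83 points) and Ly6g5b (3.88 points). Those closest to Runx3 were Kctd14 (6.68 points), Cd7 (7.41 points) and Nkg7 (7.80 points). Zbtb7b, with a level near 0, lay within 0.495 points of Eif4ebp2, Plekha7 and Seh1l. The 6-letter core of the RUNX motif, TGTGGT on either strand (ACCACA on the other), occurred in 32 of the 87 member tiles called lower in T cells (36.8%) and in 81 of the 222 member tiles not called (36.5%), against 33.5% of all tested tiles and 45.7% of all tiles called lower in T cells. It occurred in 1 of the 7 member tiles called lower in B cells, too few to compare, against 36.1% of all tiles called lower in B cells. A match is a run of letters and not a bound site.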

How the data were processed

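Whole-genome bisulphite sequencing was deposited for 16 libraries, 8 of B cells and 8 of CD4+ T cells. The authors trimmed reads with Trim Galore 0.6.0, aligned them to mm10 with Bismark 0.20.0, used SAMtools 1.3.1, kept reads of mapping quality 10 or more and combined both strands. The deposited files hold counts of unmethylated and methylated calls per CpG.

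Calls were pooled over 500 bp tiles and over windows of 1 kb either side of each start, on GRCm38.p6 (mm10) with GENCODE vM21 genes. Tiles with at least 3 CpGs and 10 calls in each library were fitted with a quasi-binomial logistic model (cell type, sex and assay, dispersion at least 1, F test), with Benjamini-Hochberg adjustment over the tiles of all protein-coding genes. A call needed an adjusted p under 0.05 and 20 points between pooled levels. Exact permutation tests are two-sided. Python 3.11.15, NumPy 2.4.6, SciPy 1.17.1 and pandas 2.3.3 were used.

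The members and lists were chosen with earlier results of these data known. In each gene the text gives the 6 largest called differences, the lowest tiles and runs of called tiles with at most 1 other tile between them (runs have no test), together with regulators whose start window was called or that had the most called tiles, and for each member the 3 genes most alike in start-window level. Depth was 5.78 to 7.99 calls per CpG, and the calls behind single tiles are given beside them. No library pair within a cell type was a duplicate (56 pairs, mean chi-square 2.18 to 5.21). Alternative filters, tile sizes, tests and subsets of libraries were run.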

Additional observations from a re-analysis of the deposited data

Results flagged for a closer look

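The named tiles and start windows gave 80 groups of 8 libraries over the cell types, leaving out groups with all libraries at one value. In 6 of them a library lay farther from the rest than Dixon's critical value for 8 libraries allows. Chance gives about 1 in 20 such groups, but this rate does not apply where all other libraries stood at 0%. There any methylated call in 1 library passes the critical value. In the Cd4 tile 10500 to 10001 bp before the start, male BS B cell library 1 held 5.26% on 19 calls and the other B cell libraries 0%. In the Cd8a tile 12000 to 11501 bp before the start, male oxBS T cell library 8 held 19.4% on 36 calls, and the next lowest held 42.9%. In the Cd8b1 tile 7000 to 7499 bp after the start, female BS B cell library 10 held 26.5% on 49 calls, and the next lowest held 44.2%. Female oxBS T cell library 16 was the highest in 2 nearly unmethylated tiles, at 0.699% on 143 calls in Zbtb7b (500 to 999 bp) and at 0.195% on 512 calls in Runx3 (32000 to 32499 bp), with the other T cell libraries at 0%. In the last 500 bp before the Runx3 start, male oxBS B cell library 2 held 3.51% on 114 calls, and the next lowest held 5.81%.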

How the results depend on the processing

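The count of member tiles lower in T cells, 87, lay between 83 and 89 when each library was left out in turn, and the count lower in B cells, 7, between 6 and 7. Tiles of 1000 bp, of which there are fewer, gave 57 and 2. BS libraries alone gave 42 and 3, male libraries alone 45 and 1, and female libraries alone 49 and 2. These subsets hold fewer libraries, and the part of that in their lower counts was not tested. The share of all tiles called under these alternatives was not computed. A limit of 30 points left 4 tiles lower in B cells, and oxBS libraries alone left 2. The Runx3 start window was no longer called within 500 bp (-12.5 points) or within 2 kb (-18.2 points), nor with BS (-18.6), oxBS (-28.5), male (-22.4) or female (-24.3) libraries alone. The start windows of Cd4, Cd8a and Cd8b1 kept their calls, and that of Zbtb7b remained uncalled, under all 27 alternatives run for windows. Of 949 values of the 31 named called tiles, 930 kept direction and call, 19 lost the call and 0 reversed. These tiles were mostly named for the largest differences, and many of the values leave out a single library. A tile that a stricter filter removed has no value under it and is not counted. A filter of 20 calls in each library removed the tiles with the largest difference in Cd4, Cd8a and Cd8b1. Under it 15 Cd4 tiles were called lower in T cells, against 23. The lost calls came with BS, oxBS, male or female libraries alone and with the limit of 30 points. Without each library in turn the start windows lay between -59.5 and -57.2 points for Cd4, -26.9 and -24.7 for Cd8a, -56.5 and -53.6 for Cd8b1, and -25.1 and -21.9 for Runx3. No paired analysis was run, because each library has its own number and the numbers do not show which B and T cell libraries share animals. Depth limits tiles with few CpGs, where a library had as few as 10 calls.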

Other observations

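The interval between the end of Cd8b1 and the first tile of Cd8a (chr6:71337495-71358426, mm10) lies outside the tiles described above and was examined after the values of both genes were seen. Of its 41 tiles of 500 bp, 32 had enough CpGs and calls. The pooled level was lower in T cells by at least 20 points in 14 of them, with no overlap between the libraries of the cell types in any of the 14 (2.03% of all tested tiles had such a difference without overlap), and higher in T cells by that much in 0. The median difference was -14.3 points, and at the largest the T cell level fell by 72.6 points. These tiles were not part of the model fit, so no p is given.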
